A study of Homo sapiens with 12 samples.

Results

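Many human genes end their transcripts at more than 1 place. The data describe genes in which use shifted between ends an intermediate distance apart when TDP-43 was knocked down. The authors' deposited table of 3' end-seq changes gave, for each listed gene, 1 polyadenylation site whose use fell and 1 whose use rose in the knockdown. Pairs of sites were kept when they lay over 1000 and at most 10000 nt apart on the genome, and 1146 of the 2220 listed pairs met that rule. The distance came from the coordinates alone, so it used no measured value beyond the listing itself. Distances were genomic and may span introns, since exon coordinates were not used here. A further 526 pairs lay within 1000 nt and 548 lay over 10000 nt.

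The knockdown cells were neurons that came from the human embryonic stem cell line WA01 (an established line, wild-type genotype) through forced NGN2 expression, and were exposed to a TDP-43 shRNA for 7 days. The control cells were neurons of the same kind given a scrambled shRNA for 7 days. There were 3 libraries of each group in each assay, and 12 in all. The assays were 3' end-seq (Quantseq REV, which reads the last bases of polyadenylated RNA) and stranded total RNA-seq. All cells derive from 1 line, and whether each library had its own culture is not stated, so the deposited p-values may reflect only technical differences. The tables used here hold 1 value per comparison or per group and none per library. The depth behind a value is therefore unknown and no spread between libraries can be given. The level of TARDBP RNA and of neuronal markers was not analysed here.

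A nascent transcript is cut and given a poly(A) tail where the cleavage machinery recognises a hexamer such as AATAAA some bases upstream, with GU-rich sequence downstream. A gene with a proximal and a distal site in its last exon makes a short or a long 3' untranslated region (3'UTR), and the long form carries additional sites for RNA-binding proteins and microRNAs. Neurons are known for long 3'UTRs. TDP-43, encoded by TARDBP, binds GU-rich RNA, and its loss from the nucleus is a hallmark of amyotrophic lateral sclerosis and frontotemporal dementia. In TDP-43-depleted cells, sites that are hardly used in normal cells can become active. Those are called cryptic.

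The sequence at a site shows the hexamer that the cleavage machinery reads. No genome was used here, and RefSeq promoter windows of GRCh38.p14 (250 nt before to 50 nt after a gene start) covered 7 of the pairs' sites. They were set by that overlap and not by the size of the change. They are the places where an end of 1 gene meets a start of the same or a neighbouring gene. The 30 bases that end at each site are given 5′ to 3′ on the strand of the transcript, with the hexamer in capitals. The falling site of SGK1, a serum-induced kinase, is chr6:134177912-134177941 on the minus strand, and that of CCDC106 is chr19:55647265-55647294 on the plus strand. The CCDC106 site lies before the RefSeq start of its gene. The falling site of ENSG00000258603 is chr14:73569121-73569150 on the minus strand. The rising site of MPDU1, needed for the use of mannose donors in glycosylation, is chr17:7584221-7584250 on the plus strand. The rising site of PPOX, an enzyme of haem synthesis, is chr1:161177982-161178011 on the plus strand. The rising site of CCDC24 is chr1:43991374-43991403 on the plus strand, also before the RefSeq start of its gene. The rising site of CTNNBIP1, an inhibitor of beta-catenin, is chr1:9848276-9848305 on the minus strand.
SGK1 falling site: ggagAATAAAtggcccagtgttgaactttg
CCDC106 falling site: gaagcttAATAAAcatctgcttattcattc
ENSG00000258603 falling site: cagaccaAATATAgacacactggaacttgc
MPDU1 rising site: acttttataaaacaaAATAAAaattaagtc
PPOX rising site: gcgattagttAATAAAacaatgaaacattg
CCDC24 rising site: ggcgacgaagtAATAAAcccgtggacccag
CTNNBIP1 rising site: gaaattaacAATAAAgaattttcataggtt

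The canonical AATAAA began 14 to 25 nt upstream of 6 of these 7 sites. ENSG00000258603 had the variant AATATA, 22 nt upstream. The search covered starts 10 to 40 nt upstream on the transcript strand for 12 hexamers, in the order AATAAA or ATTAAA or AGTAAA or TATAAA or AATATA or AATACA or CATAAA or GATAAA or AATGAA or AAGAAA or ACTAAA or AATAGA. Among 70232 windows of the same 36 nt from the middle of RefSeq promoters, both strands included, 1.07% held AATAAA and 7.64% held any of the 12. AATAAA stood at all 4 rising sites and at 2 of the 3 falling ones. Quantseq REV primes on poly(A), and a stretch of A downstream of a site can prime inside a transcript. In the 15 nt downstream of these 7 sites no run of 6 A occurred, and any 10 nt held 1 to 4 A. GTGTGT or TGTGTG occurred in those 15 nt at 1 of the 7, the rising site of CTNNBIP1, and began 2 nt downstream. The other sites of the pairs were not examined for either.

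In most of these genes use shifted toward the site farther downstream in the knockdown. RNA came from whole cultures, so a change in use within cells and a change in the mix of cells cannot be told apart. The authors' deposited table called 1035 of the 1146 longer and 111 shorter, so 90.3% were longer, against 84.7% of all 2220 pairs. The share was 88.4% (465 of 526) among pairs within 1000 nt and 69.5% (381 of 548) among pairs over 10000 nt. Pairs 1000 to 10000 nt apart therefore had the greatest share of longer calls of the 3 ranges, with no test run. Within them the share was 92.2% (333 of 361) at 1000 to 2000 nt, 92.6% (225 of 243) at 2000 to 3000 nt and 91.1% (245 of 269) at 3000 to 5000 nt. It was 87.7% (136 of 155) at 5000 to 7000 nt and 81.4% (96 of 118) at 7000 to 10000 nt. The upper end of the range thus held relatively more shorter calls. The median distance was 2761 nt in longer pairs and 3437 nt in shorter pairs. On the plus strand 548 of 605 pairs were longer and on the minus strand 487 of 541. By kind of gene, 937 of 1021 pairs in protein-coding genes (91.8%) and 53 of 66 in long noncoding RNA genes (80.3%) were longer.

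**Figure D1:**
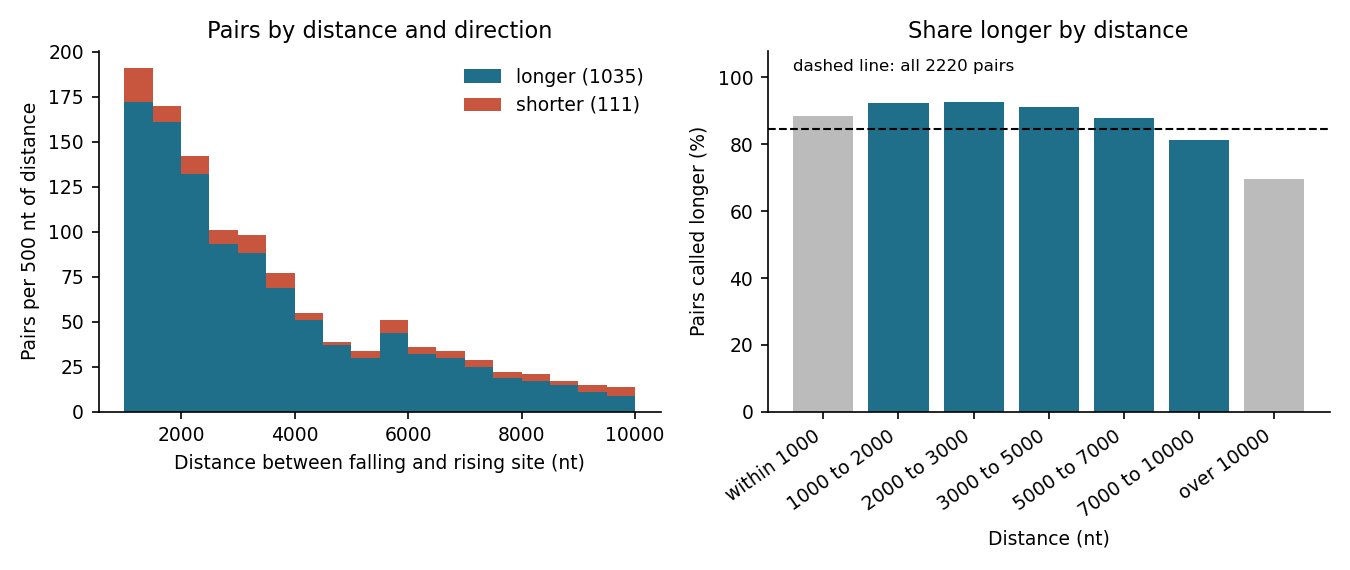
Left, the number of pairs in each 500 nt of distance, stacked by the authors' call (longer below, shorter on top). Right, the percentage called longer by distance, with the ranges outside 1000 to 10000 nt in grey and the value of all 2220 pairs (84.7%) dashed. The share is 92.2%, 92.6% and 91.1% in the ranges up to 5000 nt, 81.4% at 7000 to 10000 nt and 69.5% beyond.

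Near the limits of the rule, the authors' deposited table put CLPB at 1001 nt and HGSNAT at 1003 nt just inside, both longer with changes in usage index of 0.129 and 0.244. PGAP6 at 1000 nt and MAU2 at 997 nt lay just outside, both longer with changes of 0.184 and 0.195 in the authors' deposited table. At the upper limit ZNF493 at 9986 nt (-0.112, shorter) and MRPS25 at 9958 nt (0.236, longer) lay inside in the authors' deposited table. YIPF4 at 10007 nt (0.332, longer) and ZNF35 at 10048 nt (-0.481, shorter) lay outside in the authors' deposited table. Around the lower limit all pairs named here were longer, and around the upper limit both directions occurred on each side. These few pairs do not describe the ranges as a whole.

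The size of the change was moderate in most genes. The usage index is the authors' score for how far use moved between the sites, with a positive sign for longer, and its scale is not given in these sources. The smallest size listed was 0.100, which is the floor of the table. The median was 0.220 in longer and -0.177 in shorter pairs, and the median size was 0.217 over the 1146 pairs against 0.212 over all 2220. Pairs within 1000 nt had a median size of 0.190 and pairs over 10000 nt one of 0.226. A size of at least 0.3 was reached by 270 of the 1146 (23.6%), against 65 of 526 (12.4%) and 153 of 548 (27.9%) in the shorter and the longer distance range. Among the 1146, the adjusted p in the authors' deposited table was given as exactly 0 for 101 pairs, of 150 such pairs in all.

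**Figure D2:**
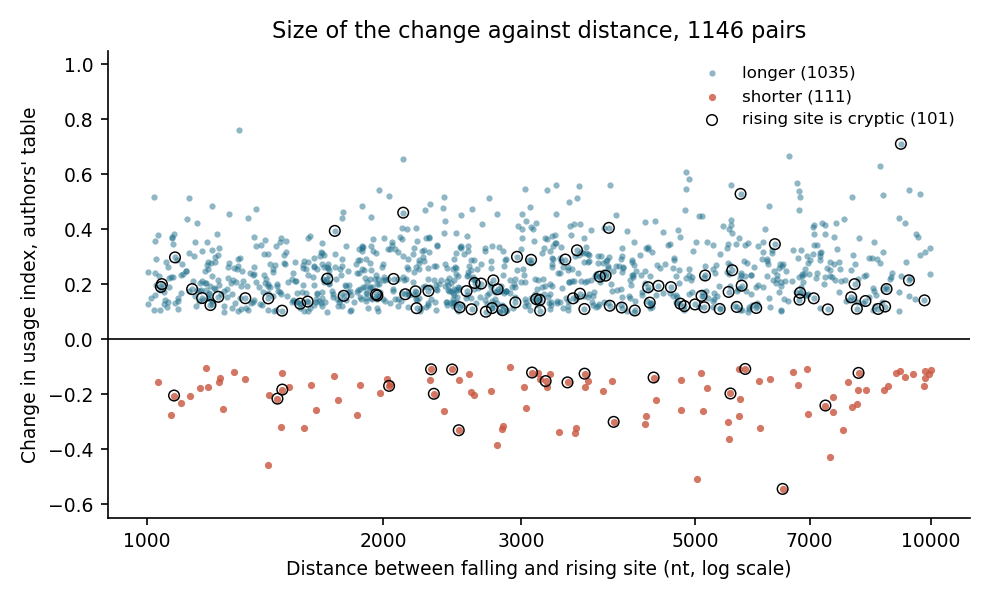
Each point is 1 of the 1146 pairs, with the genomic distance between its sites on a log axis and the authors' change in usage index on the other. Longer pairs lie above 0, shorter pairs below, and circles mark the 101 pairs whose rising site is cryptic. No pair lies between -0.1 and 0.1, the floor of the table, and ANKRD29 at 0.763 is the highest point.

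The largest move toward a distal end was that of ANKRD29, an ankyrin repeat gene, at 0.763 in the authors' deposited table (adjusted p 3.39e-55). Its use went 1308 nt downstream, with the falling site at 23600234 and the rising site at 23598926 on the minus strand of chromosome 18 (hg38). The rising site is the RefSeq end of the gene to the base. EXT1, a polymerase of heparan sulfate chains, had 0.609 over 4875 nt on chromosome 8, and RPS6KA3, the RSK2 kinase gene on chromosome X, had 0.584 over 4906 nt in the authors' deposited table. In both genes the rising site lay within 5 nt of the RefSeq end. Noncoding and poorly described transcripts filled the other places: C17orf97 (0.711), PRKCQ-AS1 (0.666), LINC01023 (0.655), ENSG00000266947 (0.632) and LINC01285 (0.569) in the authors' deposited table. C17orf97, PRKCQ-AS1, LINC01023 and LINC01285 rose at a site past the RefSeq end, by 9061, 5525, 2121 and 9674 nt. The new end of those 4 thus lay beyond the RefSeq gene, although the authors' deposited table of cryptic sites labels that of C17orf97 as intronic. The falling site of LINC01285 already lay 2929 nt past the RefSeq end.

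Moves toward a proximal end were fewer and smaller. POC1B-AS1, an antisense RNA, had the largest at -0.545 over 6466 nt in the authors' deposited table (adjusted p 4.38e-40). LY6E at -0.459 and the zinc finger gene ZNF497 at -0.429 were also among the 8 largest in the authors' deposited table. NUP93, a scaffold protein of the nuclear pore, had -0.363 over 5522 nt in the authors' deposited table (adjusted p 1.54e-296). Its falling site at 56850286 on the plus strand of chromosome 16 is the RefSeq end, and the rising site at 56844764 lies inside the gene. DMXL1, which acts on the vacuolar proton pump, had -0.342 and SETD9, a SET domain gene, -0.337 in the authors' deposited table. LY6E differed from NUP93 in its annotation: its rising site lay 1 nt from the RefSeq end and its falling site 1426 nt past it.

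Set against the annotation, the longer calls mostly ended where RefSeq ends the gene. Of the 1035 longer pairs, 995 could be matched to a RefSeq gene on the same chromosome. The rising site lay within 50 nt of the RefSeq end in 686 of them (68.9%) and the falling site in 35 (3.52%). In 233 pairs (23.4%) the rising site lay inside the gene, short of its end, and in 73 (7.34%) it lay past the end. For a few pairs the RefSeq span runs far beyond the gene. RANBP2, with a span of 1.12e+06 nt, thereby counted as inside. The falling site lay before the RefSeq start in 7 (0.704%) and the rising site in 3 (0.302%). Its median position was -2 nt from the end, while the falling site had a median of -2856 nt. The share at the end was 69.5% (307 of 442) in longer pairs within 1000 nt and 61.0% (219 of 359) in longer pairs over 10000 nt, against 67.5% (1212 of 1796) over all longer pairs. RefSeq gives the farthest annotated end of a gene, so a more distal site is nearer to it by construction, and this share is partly tied to the call itself.

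The shorter calls showed the mirror image in part. Of 99 shorter pairs with a RefSeq gene, the falling site lay at the RefSeq end in 48 (48.5%) and the rising site in 5 (5.05%). The rising site lay inside the gene in 85 (85.9%). It lay before the RefSeq start in 4 (4.04%), CCDC24 among them, against 19 of 303 (6.27%) over all shorter pairs. In 38 (38.4%) both sites were inside and neither was at the end, so the annotated end was not the site that lost use. Shorter pairs within 1000 nt fell at the end in 37 of 52 (71.2%) and those over 10000 nt in 76 of 152.

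**Figure D3:**
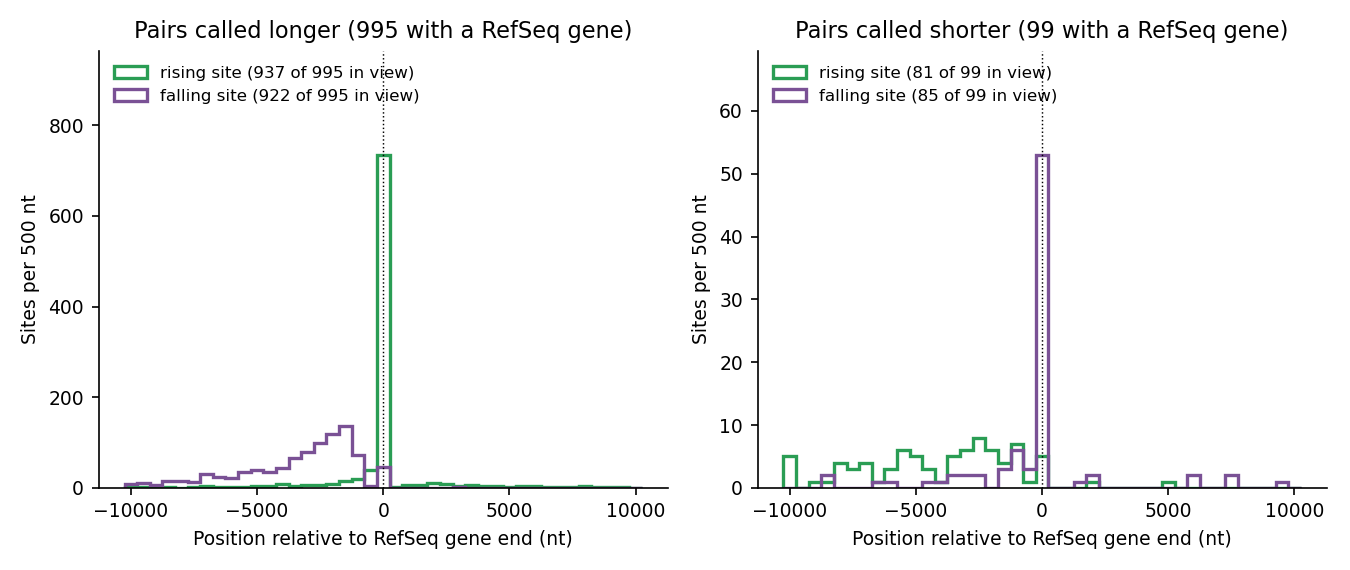
Position of the rising and of the falling site relative to the RefSeq end of the gene, in bins of 500 nt, for longer pairs (left, 995) and shorter pairs (right, 99). Negative values are upstream of the end, and the legend gives how many sites fall in the window shown. In longer pairs the rising sites pile up at 0 (686 within 50 nt) and the falling sites spread upstream, and in shorter pairs the falling sites pile up at 0 (48 within 50 nt).

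The rising site lay beyond the RefSeq end in 73 longer pairs. In 3 of the 995 matched longer pairs, as in LINC01285, the falling site was already past the end. The median rising site in these 73 was 3223 nt past the end and the median falling site was 21 nt short of it. The median change was 0.218 in them, 0.230 in the 686 at the end and 0.201 in the 233 inside. The median RefSeq gene length was 18889 nt for the 73, 39459 nt for the 686 and 44274 nt for the 233. WDR18, a ribosome assembly factor, had its falling site at the RefSeq end to the base and its rising site 3881 nt past it, with a change of 0.405 in the authors' deposited table. SAMM50, which inserts barrel proteins into the mitochondrial outer membrane, likewise had its falling site at the end and its rising site 8246 nt past it, with 0.139 in the authors' deposited table. The authors' own labels place some of these sites inside a gene. Of the 14 of the 73 that are in the authors' deposited table of cryptic sites, 9 are labelled as intron (SAMM50 among them), 3 as exon and 2 as 3'UTR (WDR18 among them), and which gene model the labels follow is not given in the sources used here.

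Some rising sites were cryptic ones. The authors' deposited table of cryptic sites gives 1 usage value per group, a fraction whose denominator is not stated, for 457 sites. The values there set its limits: over the sites that match a listed pair, control usage was at most 5.99% and the gain at least 10.03 percentage points. The rising site was cryptic in 101 of the 1146 pairs (8.81%), against 8.96% of all pairs, so the share was that of the table as a whole. It was 2.28% (12 of 526) within 1000 nt and 15.7% (86 of 548) over 10000 nt. Across the range it was 5.54% at 1000 to 2000 nt, 9.47% at 2000 to 3000 nt, 10.4% at 3000 to 5000 nt, 10.3% at 5000 to 7000 nt and 11.9% at 7000 to 10000 nt. The share thus was lowest where the sites lay closest. The falling site was cryptic in 0 of the 1146 pairs and in 0 of all 2220. That was largely set in advance, since sites listed as cryptic gained use in the knockdown.

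Of the 101, 82 were in longer and 19 in shorter pairs, which is 7.92% of the longer and 17.1% of the shorter ones. The authors labelled 73 of the 101 as lying in a 3'UTR, 21 in an intron and 7 in an exon. The 73 are 50.7% of the 144 cryptic 3'UTR sites of that table, and the 21 are 16.3% of its 129 intronic sites. Over all 2220 pairs 199 rising sites were cryptic, and 101 of them were in this range, which holds 1146 of the pairs. Of 160 cryptic sites labelled as 3'UTR extensions, 0 were rising sites of these pairs. The counts by label over all pairs are not given here, so none of them is read as particular to this range. Longer calls made up 61 of the 73 in 3'UTRs and 15 of the 21 in introns, where 90.3% of the range was longer. These splits of cryptic sites by direction are not given over all 2220 pairs, so they are not read as particular to this range.

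Median usage at these sites was 19.9% in the knockdown against 3.94% in controls in the authors' deposited table, with ranges of 10.9 to 82.6% and 0.148 to 5.99%. The groups do not overlap, which the limits of the cryptic table fix. C17orf97 reached 82.6% in the knockdown against 5.75% in controls at an intronic site (authors' deposited table). FEM1A, a substrate receptor of a ubiquitin ligase, reached 58.5% in the knockdown against 4.27% in controls at a 3'UTR site 5714 nt downstream of its falling site (authors' deposited table). PLPPR5, a membrane protein of the lipid phosphatase-related family, had 48.1% in the knockdown and 2.497% in controls in the authors' deposited table. Control usage at these 3 sites was thus at most 5.75%. WDR18 had 44.5% in the knockdown against 4.95% in controls, and ENSG00000274698 had 44.2% in the knockdown against 4.80% in controls at an exonic site (authors' deposited table). BMS1, a GTPase of ribosome assembly, had 37.0% in the knockdown against 3.99% in controls, as given in the authors' deposited table.

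The shorter pairs with a cryptic site gained a proximal end. POC1B-AS1 had 62.5% usage in the knockdown against 4.62% in controls, inside an intron (authors' deposited table). ISL1-DT, a divergent noncoding transcript of the ISL1 locus, had 38.0% in the knockdown and 5.26% in controls (authors' deposited table). MPDU1, whose rising site is printed above, had 30.2% in the knockdown and 0.438% in controls in the authors' deposited table. SMC1A, a core subunit of cohesin, had 19.9% in the knockdown and 0.646% in controls in the authors' deposited table. SYP, the synaptic vesicle protein synaptophysin, had 18.2% in the knockdown and 3.50% in controls in the authors' deposited table. MPDU1 and SMC1A thus had the lowest control usage among the shorter pairs named here. Proximal 3'UTR sites of the same kind had 26.1% in the knockdown and 4.10% in controls in P4HTM, and 25.7% in the knockdown and 3.57% in controls in DIRAS1 (authors' deposited table). GAB1, a docking protein of growth factor receptors, had 23.5% in the knockdown and 3.03% in controls in the authors' deposited table.

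**Figure D4:**
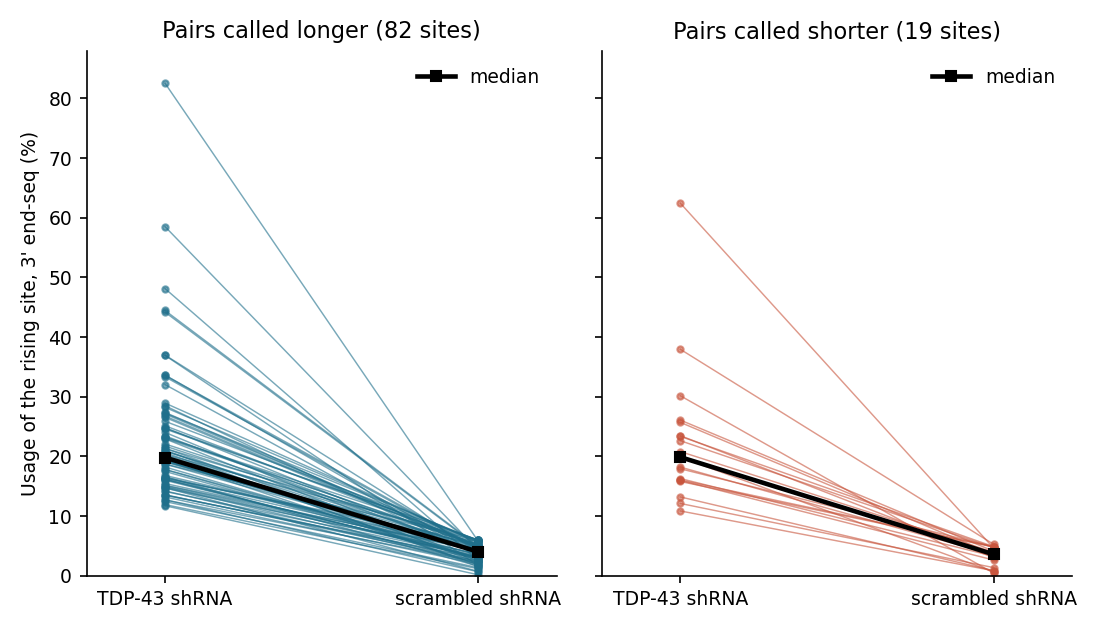
Usage of the rising site in TDP-43 shRNA cells (left end of each line) and scrambled shRNA cells (right end) for the 82 longer and 19 shorter pairs with a cryptic rising site, 1 line per site and 1 pooled value per group. Black squares are medians. Control values are at most 5.99% and knockdown values run from 10.9% to 82.6%.

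At those sites the usage index could be read against usage itself. Over the 101 sites its size differed from the gain in usage by a median of 0.396 percentage points on the percent scale, with 75 sites within 1 point and 99 within 5 points. The largest gap was 10.6 points. Pearson's r was 0.990 and Spearman's rho 0.948 over the 101 sites, which come from the same libraries. A change of 0.2 at these sites thus corresponded to about 20 percentage points more use of the rising site. The same was not measured at the other pairs, for which no usage is given.

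The RNA-seq libraries, which are separate from the 3' end-seq libraries, listed some of the same genes. The authors' deposited RNA-seq table listed 841 genes with a polyadenylation change, and it held 172 of the 1146 pairs' genes (15.01%), against 10.6% of all 2220. The share was 7.22% (38 of 526) within 1000 nt and 4.56% (25 of 548) over 10000 nt, so these pairs were listed in RNA-seq more often than pairs of either other range. They made up 20.5% of the 841 RNA-seq genes. Which group was subtracted in the RNA-seq table is not stated, so its calls and signs are given as deposited, and whether distal refers to the knockdown is not known from these sources. RNA-seq called 165 of the 166 listed longer genes distal. It called 4 of the 6 listed shorter genes proximal and the other 2 distal. Of all 841 RNA-seq genes 95% were called distal, so the direction of the 165 is that of nearly all genes of that table. Among pairs with a cryptic rising site 24 of 101 (23.8%) were listed, and among the others 148 of 1045 (14.2%).

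The sizes of the change in the assays were weakly related. Over all 172 genes listed in both, Pearson's r was 0.276 and Spearman's rho 0.098. Both assays list changed genes only, which limits what such values can show. Over the 165 genes called longer and distal, Pearson's r was 0.108 and Spearman's rho 0.046, across genes that share the same 6 libraries in each assay. The RNA-seq index has another scale, since it exceeds 1, and its values are quoted as deposited. AP1M1, a subunit of the clathrin adaptor AP-1, had the largest RNA-seq change at 2.785 beside 0.346 in 3' end-seq (authors' deposited table of each assay). SAMM50 had 2.057 in RNA-seq beside 0.139 in 3' end-seq, and EFCAB11, an EF-hand gene, had 2.054 beside 0.122 (authors' deposited table of each assay). EXOC3, an exocyst subunit, had 1.789 beside 0.346, ANKRD29 had 1.764 beside 0.763 and MRPL2, a protein of the mitochondrial ribosome, had 1.726 beside 0.124 (authors' deposited table of each assay). Large RNA-seq values thus occurred at both ends of the 3' end-seq range.

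As deposited, few calls differed between the assays. IRX2-DT was longer in 3' end-seq at 0.518 and proximal in RNA-seq at -0.786 (authors' deposited table of each assay). Its sites lay 1020 nt apart, at -3185 and -4205 nt from the RefSeq end. DDX52, an RNA helicase gene, was shorter at -0.120 and distal at 0.509, and ZNF263 was shorter at -0.125 and distal at 0.483 (authors' deposited table of each assay). The genes that were shorter and proximal were PPIA, encoding cyclophilin A (-0.321 and -0.966), NUP93 (-0.363 and -0.789), the splicing factor gene SRSF7 (-0.118 and -0.256) and SYP (-0.157 and -0.182), in the authors' deposited table of each assay. In all 4 the falling site lay within 5 nt of the RefSeq end.

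**Figure D5:**
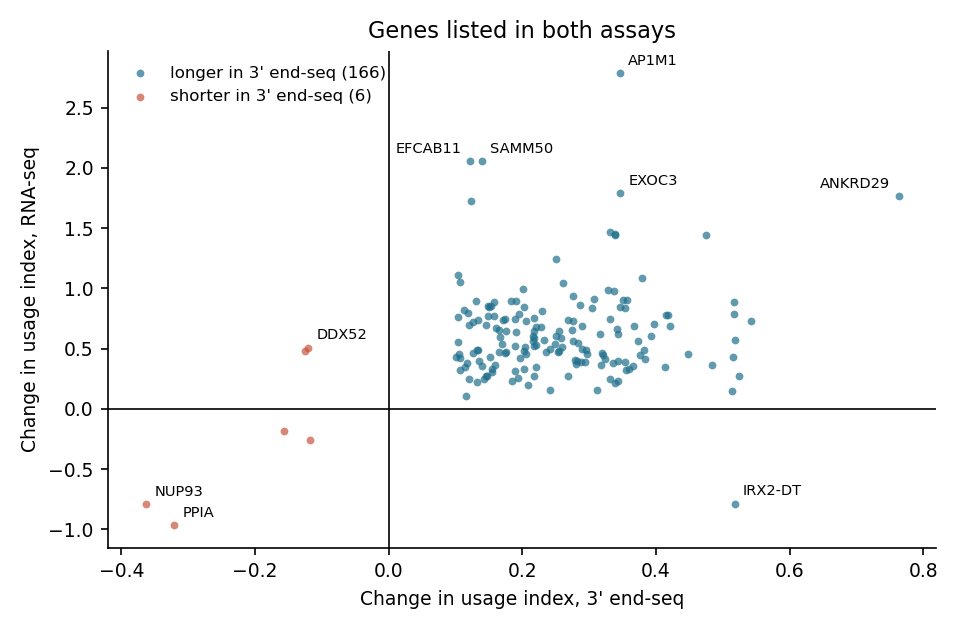
Change in usage index in 3' end-seq (horizontal) and in RNA-seq (vertical) for the 172 genes listed in both, coloured by the 3' end-seq call. The indices have different scales. Of 166 longer genes 165 lie at the upper right, 4 of 6 shorter genes lie at the lower left, and IRX2-DT is the point at 0.518 and -0.786.

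Changed splicing was rarely found between the sites. The authors' deposited splicing table (LeafCutter) named the gene of 212 of the 1146 pairs (18.5%), against 19% of all pairs. A listed intron lay wholly between the sites in 7 pairs (0.611%), against 3.92% of all pairs. It was 0 of 526 within 1000 nt and 80 of 548 (14.6%) over 10000 nt, and a wider interval can hold more introns. The 7 were SFPQ, INPP5E, TRIM3, TSNAX-DISC1, TSPOAP1, DDX52 and CCDC106. In 24 pairs (2.09%) a listed intron held 1 site and had its other end between the sites, as in SHANK3 and KLHL4, and in 18 (1.57%) it held both, against 4.77% and 1.31% of all pairs. With those counted, 37 pairs (3.23%) had a listed intron across or between the sites, against 6.89% of all pairs. A listed intron ended up to 1000 nt upstream of the falling site in 33 pairs (2.88%) and of the rising site in 5 (0.436%), against 3.60% and 1.08% of all pairs.

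The listed introns at these pairs were of several kinds, and the group subtracted in the splicing table is not stated, so signs are as deposited. In SFPQ, a nuclear RNA-binding protein gene longer by 0.314 over 7221 nt, 3 unannotated introns lay between the sites, with share changes of -0.1 to 1.2 percentage points in the authors' deposited table. In the same cluster (adjusted p 2.5e-06) the annotated intron that ends 992 nt upstream of the falling site changed by -15.4 points in the authors' deposited table. In TRIM3, a ubiquitin ligase gene shorter by -0.206, an annotated intron between the sites changed by -35 points (cluster adjusted p 6.79e-05, authors' deposited table). In PPOX the annotated intron ending 310 nt upstream of the falling site changed by -23.7 points (cluster adjusted p 0.0194, authors' deposited table). In INPP5E, a phosphatase of primary cilia, an annotated and a cryptic 3' splice site lay between the sites, at 5.3 and -5.3 points in the authors' deposited table. SHANK3 had an intron with a cryptic 3' splice site ending 182 nt upstream of its rising site, at -12.8 points in the authors' deposited table. PPOX, SHANK3 and KLHL4 were named after their values were seen.

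Genes of protein degradation, which was also the longest of the 17 lists examined, gave the most members. Of 100 genes of ubiquitin ligases and the proteasome, 23 were in the table and 17 were pairs of this range, 17 longer and 0 shorter, with a median change of 0.279. PSMD11, a subunit of the proteasome lid, had 0.491 over 2295 nt (adjusted p 8.02e-246), and RNF115, a RING-type ubiquitin ligase, had 0.417 over 5562 nt in the authors' deposited table. NEDD4L, a ligase for membrane channels, had 0.323 over 4965 nt in the authors' deposited table. These 3 rose within 3 nt of their RefSeq end. Over all pairs of this range 90.3% were longer, so a run of 17 longer calls is near what the range as a whole shows.

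Some nuclear transport and motor genes were in the range. Of 51 genes of the nuclear pore and nucleocytoplasmic transport, 10 were in the table, 8 longer and 2 shorter. The 7 in this range were 5 longer and 2 shorter, where 90.3% of the range was longer. The importin IPO9 had 0.416 over 7328 nt, RANBP2, a filament protein of the pore, 0.235 and the importin alpha gene KPNA6 0.226 in the authors' deposited table. NUP93, described above, and KPNA5 were the shorter members. Of 39 genes of kinesin and dynein motors and their adaptors, 5 were in the range and 5 were longer, with a median of 0.170. Over the range as a whole 90.3% were longer. DCTN5, a dynactin subunit, had 0.328, KIF26B 0.284, KIF2A, a kinesin that depolymerises microtubules, 0.170 and KIF1C 0.134 in the authors' deposited table. CAMSAP1, which binds microtubule minus ends, was longer by 0.320 in the authors' deposited table and was the sole member of the range among 38 cytoskeletal genes.

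Some synaptic and axonal genes were in the range. Of 34 genes of postsynaptic scaffolds and glutamate receptors, 4 were in the range and 4 were longer, where 90.3% of the range was. They were the scaffold genes DLGAP1 (0.294), HOMER2 (0.251), SHANK2 (0.196) and SHANK3 (0.159) in the authors' deposited table. Of 37 presynaptic genes, the calcium sensor SYT7 was longer by 0.169 and SYP shorter by -0.157 in the authors' deposited table. The list of 37 voltage-gated ion channel genes had 7 in the table, 5 longer and 2 shorter. The calcium channel genes CACNA1C (0.232) and CACNB4 (0.209) were the 2 in this range, both longer in the authors' deposited table. Among 79 genes of axon guidance and adhesion, CTNND2, a catenin of neuronal junctions, was longer by 0.189 in the authors' deposited table. The semaphorin receptor PLXNA2 (-0.223) and the repulsive ligand SEMA3A (-0.128) were shorter in the authors' deposited table. SEMA3A fell at its RefSeq end and rose 2570 nt upstream.

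Genes that act on RNA themselves were present. The list of 25 cleavage factor genes had 7 in the table, 7 longer and 0 shorter. CPSF6 (0.259 over 4687 nt) and CSTF2T (0.164 over 1770 nt) were the 2 in this range, longer in the authors' deposited table. Over the range 90.3% were longer. Of 29 hnRNP and SR splicing factor genes, HNRNPR (0.158), HNRNPA0 (0.154) and HNRNPDL (0.105) were longer and SRSF7 (-0.118) shorter in the authors' deposited table. All 4 were listed in RNA-seq, where 15.01% of the range and 10.6% of all pairs were listed. The rising sites of HNRNPR and HNRNPA0 were cryptic, with 19.6% usage in the knockdown against 4.38% and 4.93% in controls in the authors' deposited table. A cryptic rising site occurred in 8.81% of the range and in 8.96% of all pairs. With only 4 genes, neither count is read as a trait of this list. A list of 35 genes headed neuronal RNA-binding proteins, not all of them specific to neurons, had 5 in the table, 3 longer and 2 shorter. TIAL1 (0.281) and CELF2 (0.160) were the 2 in this range, both longer in the authors' deposited table. TIAL1 rose 1660 nt past its RefSeq end.

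Of 66 cytoplasmic ribosomal protein genes, 4 were in the table and all 4 were in this range, longer and listed in RNA-seq. Of the 2220 pairs 1146 were in the range, and of these 90.3% were longer and 15.01% listed in RNA-seq. RPL14 had 0.250 over 6311 nt, RPL22 0.206 over 1187 nt, RPS23 0.190 over 2744 nt and RPS15A 0.150 over 1673 nt in the authors' deposited table. Each had an adjusted p given as 0. Of 92 chromatin genes 4 were in the range and longer (90.3% over the range), namely the DNA methyltransferase DNMT3A (0.448), the remodelling subunit ARID2 (0.306), BRWD3 (0.235) and the histone methyltransferase NSD1 (0.160) in the authors' deposited table. The autophagy genes ATG7 (0.109) and PIK3C3 (0.106) and the GTPase regulator TBC1D1 (0.137) were longer in the authors' deposited table. Of 39 genes linked to amyotrophic lateral sclerosis or frontotemporal dementia, 3 were in the table and 0 in this range. A list of 14 genes known from reports as targets of TDP-43 in polyadenylation may rest partly on these libraries. Of its members SFPQ was longer by 0.314 in the authors' deposited table. SMC1A (-0.197) and CNPY3, a chaperone of toll-like receptors (-0.102), were shorter in the authors' deposited table.

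The stretch between the sites is gained or lost by the transcript unless it is spliced out. In 4 of the 1146 pairs it held the gene of a known microRNA, and no share over all pairs is given. They were found by position in RefSeq and named after the values were seen. In RAB11FIP4, an effector of recycling endosomes longer by 0.175 over 5162 nt in the authors' deposited table, MIR4724 lies on the same strand. In CCNYL1, a cyclin-like gene longer by 0.215 over 1691 nt in the authors' deposited table, MIR4775 lies on the same strand. In CPSF6 and NGB, the neuroglobin gene (-0.188, shorter, authors' deposited table), MIR1279 and MIR1260A lie on the opposite strand. The mature RefSeq sequences are shown because the stretch gained by RAB11FIP4 and CCNYL1 spans them on its own strand. The seed, bases 2 to 8, is in capitals. They lie at chr17:31534893-31534915 and chr17:31534941-31534961 on the plus strand, chr2:207754816-207754837 on the plus strand, chr12:69273188-69273204 on the minus strand and chr14:77266231-77266248 on the plus strand (GRCh38.p14), in the order listed.
hsa-miR-4724-5p (RAB11FIP4): aACUGAACcaggagugagcuucg
hsa-miR-4724-3p (RAB11FIP4): gUACCUUCugguucagcuagu
hsa-miR-4775 (CCNYL1): uUAAUUUUuuguuucggucacu
hsa-miR-1279 (CPSF6): uCAUAUUGcuucuuucu
hsa-miR-1260a (NGB): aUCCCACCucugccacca

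No seed was shared among these 5 sequences. The level of the microRNAs was not analysed here.

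In a few pairs the stretch between the sites also held the start of another gene. Of the 1035 longer and 111 shorter pairs, another RefSeq gene started between the sites on the same strand in 9 longer pairs. On the opposite strand 1 did so in 11 longer and 1 shorter pair. The gene's own start lay between the sites in 5 longer and 3 shorter pairs. No share over all 2220 pairs is given for these counts, so they are not read as particular to this range. On the same strand these included GLMP, whose rising site lay 2597 nt past its RefSeq end and beyond the start of SMG5, and DNAJC15, beyond the start of LINC00400. On the opposite strand they included WDR55, where DND1 starts between the sites, and TRAPPC12, where TRAPPC12-AS1 does. WDR55 was longer by 0.461, TRAPPC12 by 0.403, DNAJC15 by 0.516 and GLMP by 0.228 in the authors' deposited table. In WDR55, TRAPPC12 and GLMP the falling site lay within 5 nt of the RefSeq end. In 20 of the 1146 pairs the stretch between the sites overlapped that of another listed pair on the opposite strand, and in 2 on the same strand. The share over all pairs is not given for these either. ATG10 (-0.172) and RPS23 (0.190) faced each other in that way with opposite calls in the authors' deposited table. How the authors assigned a site past a gene's end to that gene is not given in the sources used here. No site was used by more than 1 pair.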

How the data were processed

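The series holds 12 libraries, 3 per group in each assay, grouped by the labels into TDP-43 shRNA and scrambled shRNA neurons. Per the labels' protocols, RNA was taken after 7 days, and 3' end-seq used Quantseq REV and RNA-seq a stranded total RNA kit. Per the submitters' processing notes, the tools were STAR, Salmon, fastp, SAMtools and DESeq2, with hg38 as the build. Which program called polyadenylation changes and cryptic sites is not given in the sources used here. Changes in usage index and in intron share are scores that the authors deposited. The authors deposited adjusted p-values, 1 per gene or cluster. For cryptic sites the authors deposited usage as a fraction for each group, given here as a percent. All tables list changed items only, so the number tested is not known, and depth is unknown. Among cryptic sites 2 are listed again with slightly other values, and the earlier line was kept. A gene table with 6 per-sample columns was not used, since no label ties its columns to samples.

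Sites were read from the coordinates, and genes were matched to RefSeq (GRCh38.p14) by symbol, synonym or identifier. Of the 1146 pairs 1094 matched. A site was at the end when within 50 nt of it. A cryptic match needed the exact position, and a junction near a site ended up to 1000 nt upstream on the same strand. Everything was described by counts, medians and ranges, with no test of its own. Intervals of 95% over the pairs served only to compare settings. The planned comparisons of site sequences over all pairs were not run for want of a genome. The functions for intervals, junctions and hexamers were tested on simulated data. Genes were named by rule: the 8 largest changes in each direction (some named items are not reported here), up to 4 per list, the 8 most used cryptic sites, opposite RNA-seq directions, the 6 largest RNA-seq changes, junctions between sites, and pairs at the limits. Genes named for a neighbouring gene, a microRNA, a site sequence, a site past the end, a proximal cryptic site, the same direction in both assays when shorter, or a junction near a site fall outside that rule and were chosen after their values were seen. The members and the 17 lists were chosen with earlier results of these data known. The scripts ran under Python 3.11.15 with SciPy 1.17.1, numpy 2.4.6, matplotlib 3.10.9 and pandas 2.3.3.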

Additional observations from a re-analysis of the deposited data

How the results depend on the processing

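Of 38 alternatives to the reported shares and medians, 31 lay within the 95% interval of the reported value and 7 lay outside it. The intervals count pairs as independent, although all share the same libraries, and most alternatives are subsets of the same pairs. Lying within an interval is therefore no test of stability. The share called longer was at least 89.4% in each alternative. With distances of 1000 to 5000 nt, 92.0% of pairs were longer and 0.229% had a listed intron between the sites. With a change of at least 0.2 in size, 93.2% were longer, the median size was 0.281 and 4.50% had a cryptic rising site; this limit removes small changes by construction. With a window of 500 nt, 1.40% had a junction upstream of the falling site and 0.175% upstream of the rising site, the second within the 95% interval of its reported value. With 10 nt in place of 50 nt, a tolerance chosen after seeing the data, 65.4% of longer pairs rose at the RefSeq end. No paired analysis was possible because the tables used here hold no value per library and no label ties the 6 per-sample columns of a gene table to samples, and for the same reason no replicate could be left out. The planned wider windows for GTGTGT were not run, since no genome was used. The number of genes tested, the depth and the spread between libraries are unknown, which limits every share given.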
